A study of Mus musculus with 11 samples.

Results

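The strongest sites at which activated Notch1 and tagged Zmiz1 were called together in a mouse T-cell leukaemia line marked 10 genes. They are Stk3, Nck2, Rhoh, Irak1bp1, Dennd2d, Zbtb11, Ctnnd2, Lpp, Naxd and Rec114, 10 of the 21887 protein-coding genes of the RefSeq table. Each is the gene nearest to, or containing, 1 of the 15 strongest peaks of ICN1, the intracellular and active form of Notch1, that overlapped an HA-Zmiz1 peak in the same cells. There were 302 such shared peaks among 414 ICN1 peaks (72.9%), and all 10 sites are shared by the rule. The other 5 of the 15 strongest lay nearest to Gm266, Gsdmc, Notch3, Lef1 and Ccnd3. The weakest member site, near Irak1bp1, had an ICN1 fold enrichment of 16.9 and a −log10 p of 34.9, and the next shared peak, in Cnot10, had 16.6 and 33.8. The genes were thus chosen by the ICN1 and HA-Zmiz1 peaks of the HA line, whose values are given as description alone.

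The cells were 8946 T-lymphoblastic leukaemia/lymphoma cells that had received 2 retroviruses, one carrying an epitope-tagged Zmiz1 with an NGFR marker and one an activated Notch1 with GFP, and had been sorted for both markers. One line, HA-Zmiz1/DEGFDLNRDP, is called the HA line here, and the other, Flag-Zmiz1/L1601PDP, the Flag line, so that the tag and the Notch1 construct differ together and both lines carry introduced Zmiz1 and Notch1. ICN1, HA-Zmiz1 and an input were profiled in the HA line by ChIP-seq, in which DNA bound by a protein is precipitated with an antibody and sequenced. In the Flag line ICN1, Flag-Zmiz1, Rbpj, 4 histone marks and an input were profiled. Factor samples were fixed with DSG and formaldehyde, and histone samples with formaldehyde. Each of the 11 libraries stood alone for its target and line, and the HA-line peaks were called on reads that the headers name as pooled. No difference below could therefore be set against a spread between replicates, and none has a p-value of its own.

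Notch1 is a cell-surface receptor whose intracellular part is released on activation, enters the nucleus and binds DNA through Rbpj together with coactivators of the Mastermind family. Zmiz1 is a PIAS-like coactivator that binds Notch1 in T-cell leukaemia and helps to drive a subset of its targets. Many strong Notch1 sites in leukaemic T cells are enhancers that lie away from the transcription start. H3K4me1 marks enhancers, H3K4me3 promoters, H3K27ac active elements of both kinds, and H3K27me3 genes held silent by Polycomb.

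The 2 H3K27 libraries went against their labels. Among 10 regulators of embryonic development (Pax6 and Hoxa9 among them), 10 had a segment over a gene end in the library labelled H3K27ac and 0 in the library labelled H3K27me3. Housekeeping genes had 0 of 10 and 10 of 10 in the same order of libraries, and T-lineage genes likewise 0 of 10 and 10 of 10. Both are named by label throughout, and no direction is drawn from the names. H3K4me3 covered an end of 10 of 10 T-lineage genes, 1 of 8 B-lineage genes (Cr2) and 1 of 8 myeloid genes (Itgam). Filtered tags were 13.5 M for ICN1 and 15.3 M for HA-Zmiz1 in the HA line, and 15.4 M for ICN1, 15.4 M for Flag-Zmiz1 and 19.0 M for Rbpj in the Flag line. The inputs held 26.8 M in the HA line and 36.4 M in the Flag line. All libraries of a line share its input, so Rbpj and ICN1 of the Flag line were set against other control reads than ICN1 of the HA line.

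Each gene is described through its anchor, the strongest shared ICN1 peak within 50 kb of the gene span, and through all peaks and histone segments in that window. Coordinates are mm10 (RefSeq GRCm38.p6). At Zbtb11 the anchor lay at the annotated transcription start, and this promoter is shown with 2 promoters that carried Rbpj but no ICN1 peak. Each is the run of 250 bases before the RefSeq start on the plus strand, 5′ to 3′, with the sequence from RefSeq, and capitals mark TGGGAA, the core of the best-known Rbpj motif.
Zbtb11, chr16:55973554-55973803: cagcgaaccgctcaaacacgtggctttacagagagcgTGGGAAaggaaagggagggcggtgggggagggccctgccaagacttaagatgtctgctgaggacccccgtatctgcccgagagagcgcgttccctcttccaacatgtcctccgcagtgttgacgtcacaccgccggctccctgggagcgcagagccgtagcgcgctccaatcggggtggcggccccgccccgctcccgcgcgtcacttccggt
Naxd, chr8:11497318-11497567: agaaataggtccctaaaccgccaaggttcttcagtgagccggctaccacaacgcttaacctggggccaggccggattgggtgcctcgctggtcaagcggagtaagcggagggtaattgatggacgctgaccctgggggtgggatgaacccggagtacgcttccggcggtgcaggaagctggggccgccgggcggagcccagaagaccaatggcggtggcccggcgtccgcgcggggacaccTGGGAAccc
Rhoh, chr5:65863334-65863583: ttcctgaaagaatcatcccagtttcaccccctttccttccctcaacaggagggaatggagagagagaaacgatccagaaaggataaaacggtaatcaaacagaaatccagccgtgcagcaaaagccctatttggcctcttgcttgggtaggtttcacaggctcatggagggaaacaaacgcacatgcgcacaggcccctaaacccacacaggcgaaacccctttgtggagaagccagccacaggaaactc

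In the Zbtb11 promoter the TGGGAA at 55973591 to 55973596, 208 bases before the start, lay inside the ICN1, HA-Zmiz1 and Rbpj peaks at once. It was 9 bp from the Rbpj summit and 19 bp from the ICN1 summit. At Naxd the copy 4 bases before the start, at 11497559 to 11497564, was 6 bp from the summit of an Rbpj peak of fold 5.45, and no ICN1 peak was called there. The Rhoh window held an Rbpj peak of fold 7.31 and none of the 5 motifs searched. RefSeq windows of 300 bases (250 before to 50 after the start) were matched for 9 of the 10 genes, 13 windows in all, and Stk3 had no entry. On either strand TGGGAA stood in 4 of the 13 windows, against 25.6% of 32851 RefSeq windows. The variant TGAGAA stood in 1 (20.2% of all windows), the ETS core CCGGAAG in 3 (8.86%), the RUNX core TGTGGT in 4 (16.8%) and the E-box CAGCTG in 1 (16.3%). The 2 Naxd windows overlap each other, as do 2 of the Dennd2d windows, and so share bases. A match is a description of these letters and not of a bound site.

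Among the signalling genes, the Stk3 site stood out for its HA-Zmiz1 peak. Stk3 encodes Mst2, a kinase of the Hippo pathway. Its anchor, chr15:34890673-34891009, lay inside the gene, 15.4 kb from the low end. The summit carried a pileup of 51 ICN1 reads in the HA line (exact Poisson 95% interval 38.0 to 67.1, which covers counting error only), a fold of 20.7 over the local input and a −log10 p of 59.3. HA-Zmiz1 reached a fold of 17.2 there, place 21 of 4984 peaks, the best place among the 10 sites. In the Flag line the same site had an ICN1 fold of 8.85 and an Rbpj fold of 27.3, place 20 of 20993. All 4 lists thus had a peak at this site, although the ICN1 fold in the Flag line was below that in the HA line. Stk3 was also the only member with a second ICN1 peak in its window, a weaker one of fold 4.99 at chr15:35158351-35158450, just beyond the high end, where HA-Zmiz1 had a fold of 7.46 and Rbpj 14.2.

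Nck2 encodes an SH2/SH3 adaptor that links receptor tyrosine phosphorylation to the actin cytoskeleton. Its anchor, chr1:43500283-43500517, was inside the gene, 54.7 kb from the RefSeq start. ICN1 had a pileup of 41 (29.4 to 55.6) and a fold of 16.8 in the HA line, and a pileup of 24 (15.4 to 35.7) and a fold of 12.1 in the Flag line, place 14 of 82. Rbpj had a fold of 18.6 (place 176). HA-Zmiz1 was weak at this site, with a fold of 4.74 (place 2677) over an input at 6.65 times the mean background. Its best peak in the window, fold 9.08, lay 32.1 kb away toward lower coordinates. Nck2 had the most peaks of any member, with 13 of HA-Zmiz1 and 14 of Rbpj in a window of 225 kb. Per 100 kb its HA-Zmiz1 density of 5.8 was also the highest. Rbpj, at 6.2 per 100 kb, was denser at Naxd (8.6) and Rhoh (7.4).

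Rhoh encodes a protein of blood cells that takes part in T-cell receptor signalling. Its anchor, chr5:65858169-65858293, lay 2.50 kb below the gene span and 5.34 kb from the RefSeq start. The ICN1 pileup was 36 (25.2 to 49.8) and the fold 14.8, the lowest ICN1 fold of the 10, and Rbpj had a fold of 21.0 (place 183). No ICN1 peak was called in the Flag line. HA-Zmiz1 had a fold of 6.63 (place 1643) at the anchor, and stronger peaks on the far side of the gene, the best of fold 16.4 (place 63) 71.1 kb away. The strongest Zmiz1 peak of the Rhoh window thus lay apart from the ICN1 peak, and nearer to the span of Chrna9 than to that of Rhoh.

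Irak1bp1 encodes a protein that binds the kinase Irak1 and acts in NF-κB signalling. The anchor, chr9:82855305-82855524, lay 7.75 kb above the gene span. In the HA line the ICN1 pileup was 27 (17.8 to 39.3) and the fold 16.9, and the Flag line had no ICN1 peak. Rbpj had a fold of 23.3 (place 72) and HA-Zmiz1 8.89 (place 996). The strongest HA-Zmiz1 peak of the window by −log10 p was another one, 29.6 kb below, with a fold of 8.47. Irak1bp1 and Zbtb11 had the lowest ICN1 pileups of the 10 sites.

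Dennd2d encodes a DENN-domain exchange factor for Rab GTPases. The anchor, chr3:106462248-106462474, lay 20.1 kb below the gene. Its ICN1 values were high in both lines, with a pileup of 64 (49.3 to 81.7) and a fold of 21.6 in the HA line, and a pileup of 27 (17.8 to 39.3) and a fold of 15 in the Flag line, place 4 of 82. Rbpj had its highest fold of the 10 sites here, 38.3 (place 7 of 20993). The HA-Zmiz1 pileup of 30 stood over an input at 7.76 times the mean background, which left a fold of 6.20 (place 731). The Dennd2d site was the strongest of the 10 in Rbpj and in ICN1 of the Flag line.

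Zbtb11, a BTB zinc-finger transcription factor gene, was the only one of the 9 with a listed start that had its anchor there. The peak, chr16:55973528-55973685, had its summit 189 bp from the start. ICN1 had a pileup of 27 (17.8 to 39.3) and a fold of 18.0 in the HA line, and no peak in the Flag line. Rbpj had a fold of 29.1 (place 16). HA-Zmiz1 had its weakest place of the 10, a pileup of 10 and a fold of 5.13 (place 4085 of 4984), and its best peak in the window was of fold 7.73, 24.5 kb below. Rbpj and HA-Zmiz1 thus stood at opposite ends of their lists at this promoter.

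Ctnnd2 and Lpp encode adhesion proteins. Ctnnd2 is delta-catenin, known mainly from neurons, and Lpp is a LIM-domain protein of focal adhesions. The Ctnnd2 anchor, chr15:30975107-30975367, was the strongest ICN1 peak of the HA line, with a pileup of 96 (77.8 to 117) and a fold of 43.0, and it lay 803 kb from the start, inside the gene and 54.1 kb from its high end. HA-Zmiz1 had a fold of 11.8 (place 132), ICN1 in the Flag line 11.5 (place 17 of 82) and Rbpj 30.5 (place 29). The first place in 1 list was thus not a first place in the others. At Lpp the anchor, chr16:24428776-24429051, lay inside the gene 35.6 kb from the start. ICN1 had a pileup of 38 (26.9 to 52.2) and a fold of 24.1 in the HA line, but a pileup of 11 (5.49 to 19.7) and a fold of 3.86 in the Flag line, place 79 of 82. HA-Zmiz1 had a fold of 12.0 (place 310) and Rbpj 17.1 (place 115). Lpp was the weakest of the members that had an ICN1 peak in the Flag line.

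Naxd encodes a dehydratase that repairs hydrated NADH and NADPH. Its anchor, chr8:11503609-11503797, lay inside the gene 6.10 kb from the start. ICN1 had a pileup of 35 (24.4 to 48.7) and a fold of 22.5 in the HA line and no peak in the Flag line. Rbpj was far weaker than at the other sites, with a pileup of 11 and a fold of 7.29 (place 9749 of 20993). HA-Zmiz1 had a fold of 11.2 (place 292), but its summit was 315 bp from that of ICN1.

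Rec114 encodes a protein of meiotic recombination. Its anchor, chr9:58770150-58770294, lay inside the gene 28.7 kb from the RefSeq start. The gene is on the minus strand, and this start lies inside the span, whose high end was 52.5 kb from the anchor. In the HA line the ICN1 pileup was 37 (26.1 to 51.0) and the fold 22.9, and the Flag line had no ICN1 peak. HA-Zmiz1 had a fold of 12.3 (place 253) and Rbpj 27.6 (place 40). Its window of 270 kb held no other peak of these 3 lists, so the Rec114 site stood alone.

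**Figure D1:**
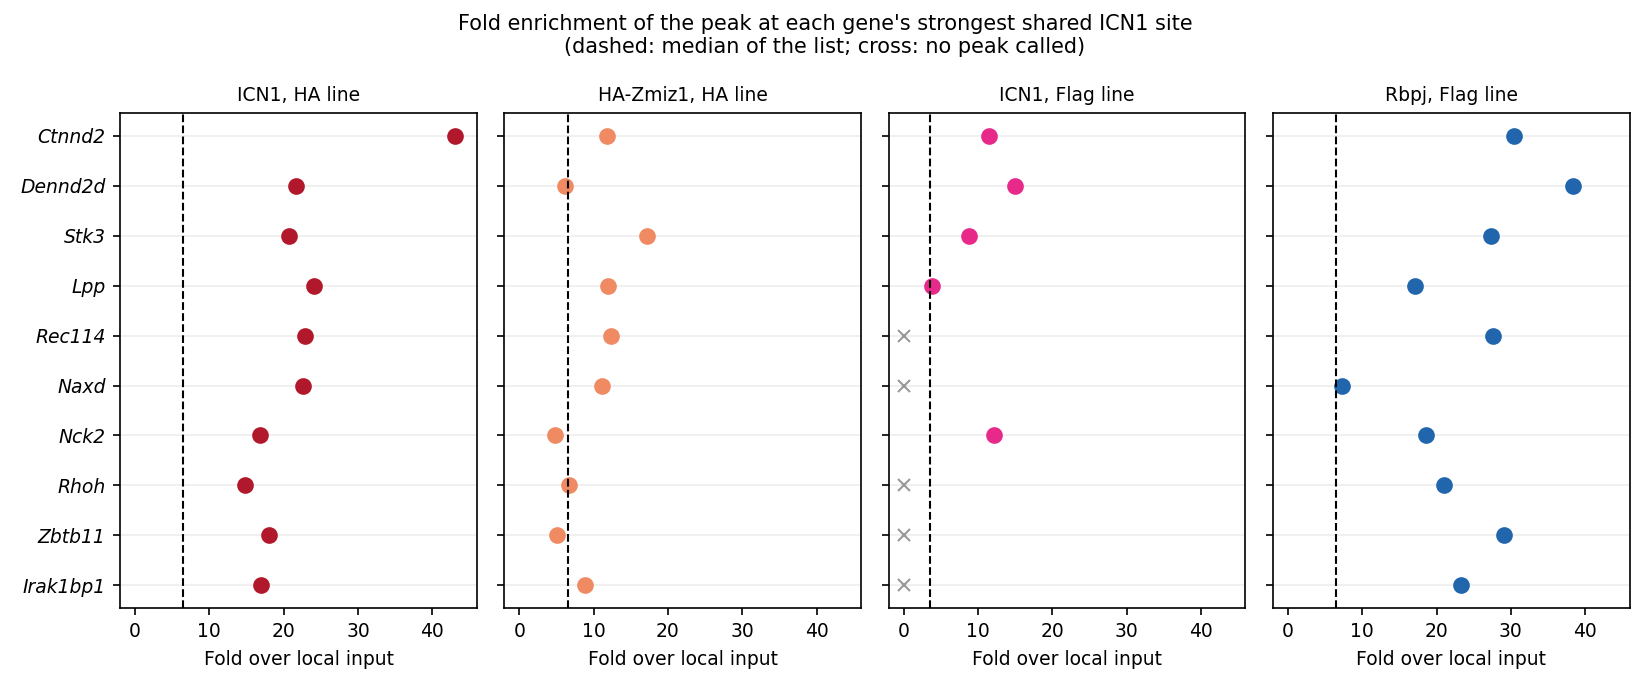
Fold enrichment over the local input (x axes) of the peak at each gene's anchor in 4 libraries. The dashed line is the median of all peaks in that list and a cross marks a site with no peak. Rbpj is below 10 at Naxd alone, ICN1 of the Flag line is missing at 5 sites, and HA-Zmiz1 spans 4.74 to 17.2.

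Rbpj, which played no part in the choice of genes, was called at 10 of 10 anchors, against 96.6% of all 414 ICN1 peaks, so its presence is near the background. Its strength was not. Rbpj folds were 7.29 to 38.3 at the anchors with a median of 25.3, against a median of 12.4 at the 400 ICN1 peaks with Rbpj. At 9 of 10 anchors the Rbpj peak ranked in the top 1% of the Rbpj list (by −log10 p), against 21.3% of the ICN1 peaks, with Naxd the exception. Of the 5 other peaks of the 15 strongest, 5 did. At the same 9 genes it was also the strongest Rbpj peak of the window. At Naxd the strongest by −log10 p, of fold 6.64, lay 47.1 kb away by Cars2. This count was not made for other ICN1 peaks and depends on how many Rbpj peaks a window held. They numbered 1 at Rec114, where the outcome was fixed, to 14 at Nck2. Over the 400 pairs of overlapping peaks the −log10 p of ICN1 and Rbpj had a Spearman correlation of 0.34, as a description across sites that include the members.

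HA-Zmiz1 ranks were spread widely over the 10 sites, from place 21 to place 4085 of 4984. Over the 302 shared pairs the Spearman correlation of its −log10 p with that of ICN1 was 0.08, with both libraries from the same line and against 1 input. The HA-Zmiz1 peak was among the strongest 1% of its list at 1 of 10 anchors (Stk3), against 6.76% of all ICN1 peaks, and among the strongest 5% at 2 of 10 (Stk3 and Ctnnd2), against 19.3%. Over the 302 ICN1 peaks that overlap HA-Zmiz1, as the anchors do by the rule, these shares were 9.27% and 26.5%, so the members lay near them. The 5 other peaks of the 15 strongest had 3 and 4 in the top 1% and 5%, which makes 4 and 6 of all 15. The shares of the 10 members thus do not stand for those of the strongest ICN1 peaks as a whole. Its folds at the anchors ran from 4.74 to 17.2 with a median of 10.0, and the median of all 302 shared pairs was 8.90. At 6 of 10 genes the anchor held the strongest HA-Zmiz1 peak of the window, and at Nck2, Zbtb11, Rhoh and Irak1bp1 another site did. The windows held 1 (Rec114) to 13 (Nck2) HA-Zmiz1 peaks, and this count was not made for other ICN1 peaks. In a bulk population a low fold cannot tell fewer bound cells from weaker binding per cell.

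Part of the sites had ICN1 in both lines. An ICN1 peak of the Flag line overlapped 5 of 10 anchors (Ctnnd2, Stk3, Lpp, Nck2 and Dennd2d), against 12.8% of all 414 ICN1 peaks. That list has 82 peaks, of which 53 stood on places where the input itself was at least 10 times its mean, called high-input places here. None of the anchors was such a place. In the HA line their inputs were 1.31 to 4.73 times the mean at the ICN1 peaks and 1.46 to 7.76 times at the HA-Zmiz1 peaks. Among the 382 ICN1 peaks of the HA line outside high-input places, 22 (5.76%) had an ICN1 peak in the Flag line, and the 5 anchors are among these 22. The 5 genes with ICN1 in both lines had HA-line pileups of 38 to 96, and the 5 without had 27 to 37, but the exact intervals of 37 (26.1 to 51.0) and 38 (26.9 to 52.2) overlap. By −log10 p the groups were mixed, with Nck2 at 44.3 below Rec114 at 51.9 and Naxd at 49.9, and HA-line ICN1 strength was used in the choice of genes. The Flag line was sequenced to 15.4 M tags for ICN1 and the HA line to 13.5 M, and the lower tag number was thus in the line with more peaks. Line, tag and Notch1 construct cannot be told apart.

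Flag-Zmiz1 was called at 0 of 10 anchors, against 7.25% of all 414 ICN1 peaks. Outside high-input places 0 of 382 ICN1 peaks had it. In their windows 2 members had a Flag-Zmiz1 peak, Ctnnd2 with a fold of 6.16 at 49.2 kb from the anchor and Nck2 with 7.04 at 92.3 kb. The Flag-Zmiz1 list held 581 peaks and the HA-Zmiz1 list 4984, at nearly equal tag numbers but against different inputs. A site with no Flag-Zmiz1 peak was not detected in that library, and is not shown to lack Zmiz1.

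The summits fell close together. Rbpj summits lay 5 to 20 bp from the ICN1 summits at the 10 anchors, with a median of 9.5 bp, against a median of 22.0 bp over all 400 pairs. ICN1 summits of the Flag line lay 1 to 23 bp from those of the HA line at the 5 sites that had them, with a median of 15 bp, against 8.0 bp over 53 pairs. HA-Zmiz1 summits were more scattered, 6 to 315 bp away with a median of 46.5 bp, against 39.0 bp over 302 pairs. Pileups at the anchors were 10 to 40 for HA-Zmiz1 and 11 to 89 for Rbpj. Whether pileup bears on these distances was not tested. Rbpj was nearer to ICN1 than HA-Zmiz1 was at 8 of 10 sites. At Irak1bp1 both were 6 bp away, and at Lpp Rbpj was 20 bp and HA-Zmiz1 13 bp away. The same count over all shared ICN1 peaks was not made. The all-pair medians of 22.0 bp for Rbpj and 39.0 bp for HA-Zmiz1 have the same order, so this is not particular to the 10 sites.

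**Figure D2:**
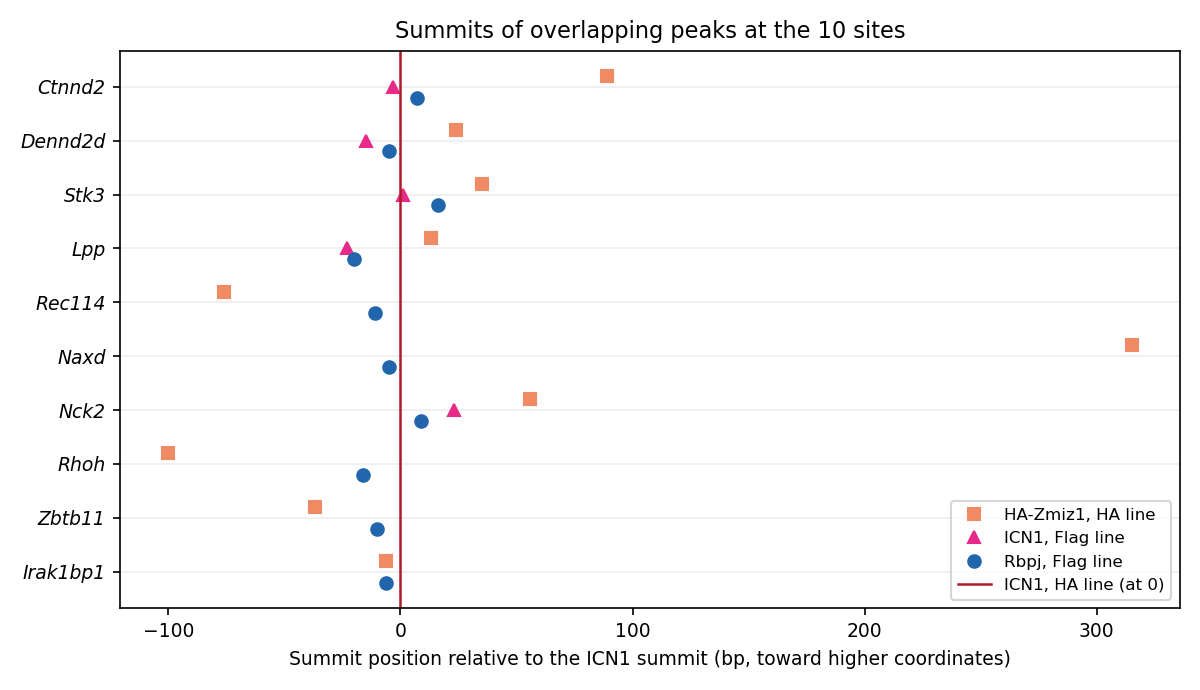
Position of the summit of each overlapping peak relative to the ICN1 summit of the HA line at 0 (x axis, bp) for the 10 genes. Rbpj points stay within 20 bp, and the HA-Zmiz1 point of Naxd is the farthest at 315 bp.

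The histone lists placed most anchors in marked chromatin of the Flag line. H3K4me1 segments covered 8 of 10 anchors (78.3% of all ICN1 peaks), H3K4me3 segments 9 (89.1%), segments of the library labelled H3K27me3 9 (89.4%) and those of the library labelled H3K27ac 0 (8.70%). These shares are near those of ICN1 peaks at large. Zbtb11 lacked H3K4me1, with the nearest segment 0.215 kb away, at an anchor next to a start. Naxd lay outside all 4 lists, as did 1.93% of the ICN1 peaks. Its nearest segments were 1.46 kb away for H3K4me1, 3.26 kb for H3K4me3, 3.46 kb for the library labelled H3K27me3 and 11.7 kb for the library labelled H3K27ac.

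The segments differed in width and strength from site to site. The Stk3 anchor lay in a segment of 64.6 kb in the library labelled H3K27me3, with 13223 ChIP and 2621 control reads and a fold of 7.85, and in an H3K4me1 segment of 62.8 kb with 7378 and 2565 reads. At Rhoh an H3K4me3 segment of 21.8 kb, with 6996 ChIP and 717 control reads and a fold of 15, covered both the anchor and the start. The Zbtb11 anchor lay in an H3K4me3 segment of 11.8 kb with 2291 and 312 reads and a fold of 11.3. Rhoh and Zbtb11 were the 2 sites in strong H3K4me3. Elsewhere the H3K4me3 folds at the anchor were lower, as in Ctnnd2, with 113 ChIP and 91 control reads and a fold of 1.91, and Rec114, with 61 and 35 reads and a fold of 2.67.

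**Figure D3:**
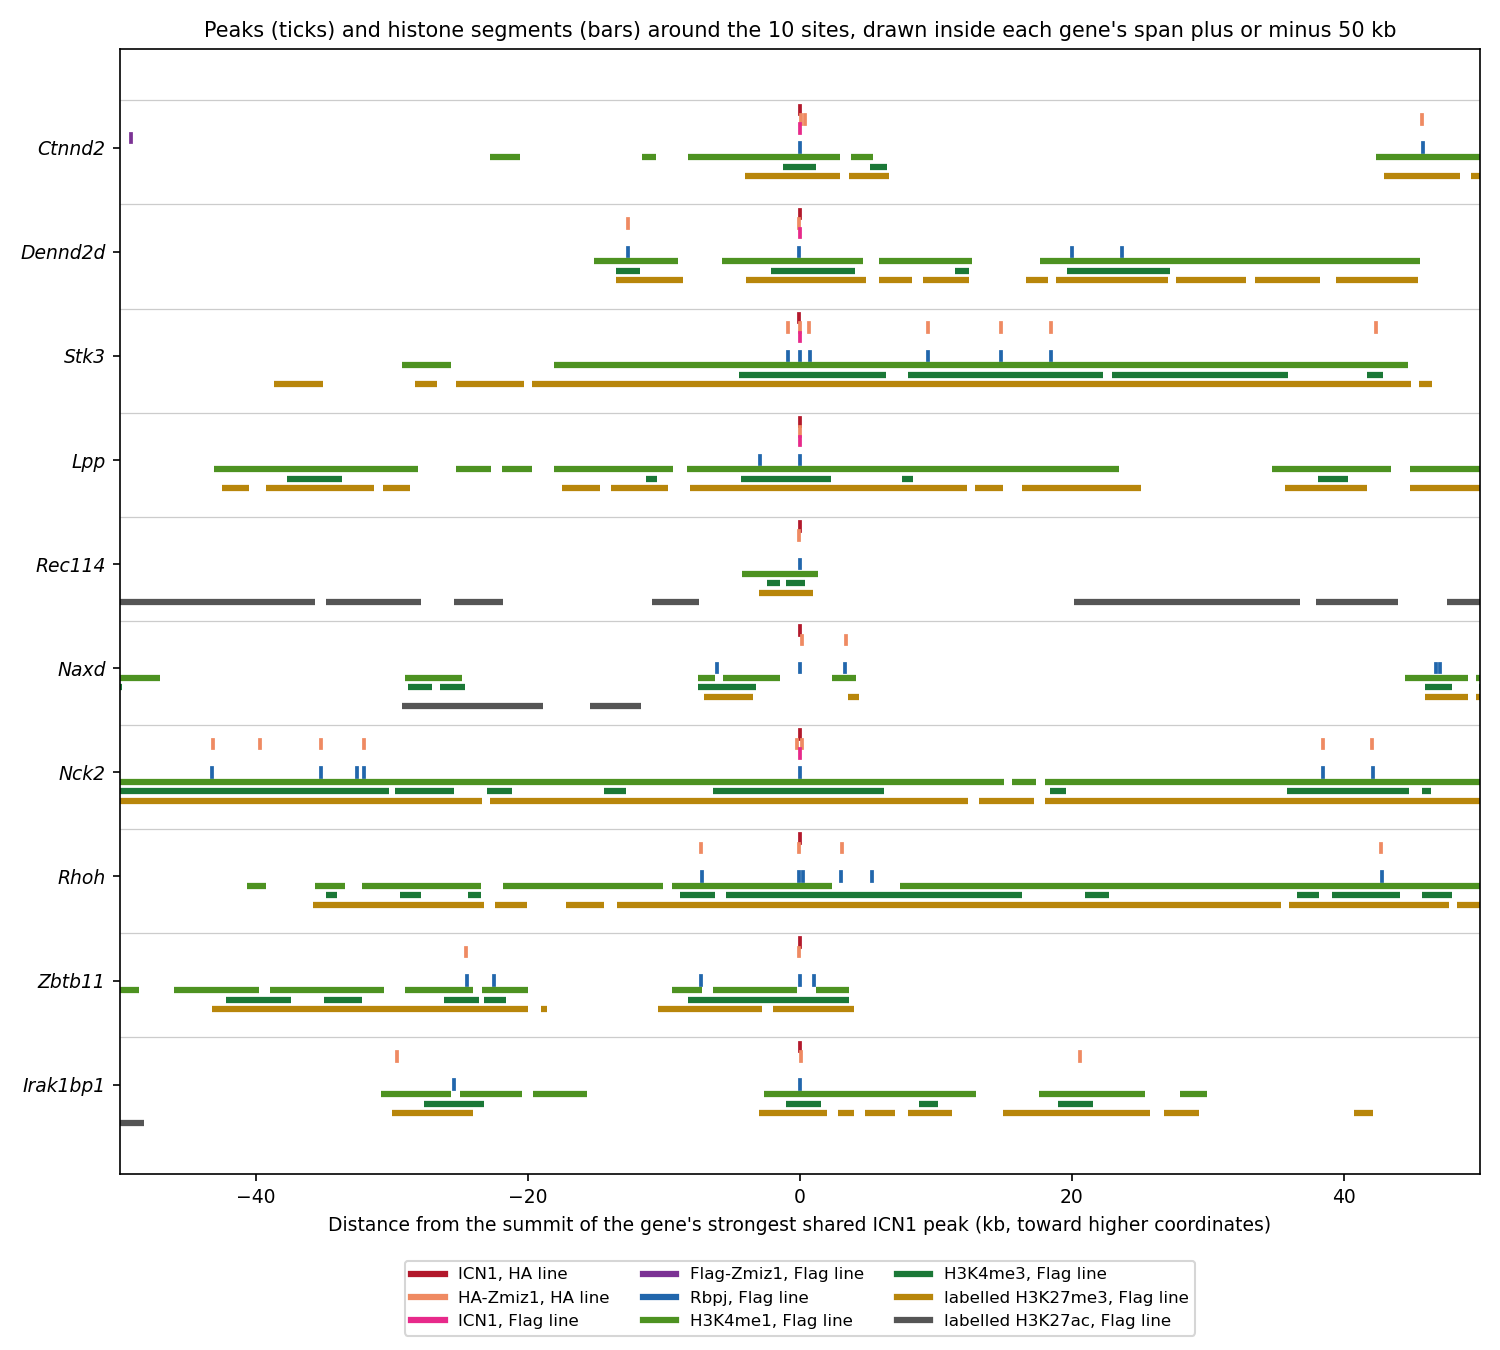
Peaks (ticks) and histone segments (bars) by distance from the ICN1 summit of each anchor (x axis, kb, toward higher coordinates), drawn inside each gene's window. Stk3, Nck2 and Rhoh lie in long segments with several Rbpj and HA-Zmiz1 peaks, and the Rec114 site stands alone between segments of the library labelled H3K27ac.

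At the gene starts, or at either end of the span for Stk3, which had no listed start, H3K4me3 covered 8 of 10 members, against 48.3% of all genes, and the exceptions were Ctnnd2 and Rec114. Folds of these start segments were 19.3 at Irak1bp1, 15.8 at Naxd, 15 at Rhoh, 11.3 at Zbtb11, 10.9 at Nck2, 10.2 at Dennd2d, 9.50 at Lpp and 7.40 at the high end of Stk3. The library labelled H3K27me3 covered the same 8 (43.9% of all genes), at both ends of Stk3. H3K4me1 covered 3 (18.0%), the starts of Lpp and Dennd2d and the low end of Stk3, so that at Stk3 H3K4me1 and H3K4me3 were counted at opposite ends. The library labelled H3K27ac covered 1 (17.5%), that of Rec114, in a segment of 7.0 kb with 159 ChIP and 109 control reads and a fold of 2.65. Rec114 and Ctnnd2 thus held strong ICN1 sites in genes with no H3K4me3 at the listed start, which for Rec114 lies inside the span.

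Over the whole windows, HA-line ICN1 (3.42% of all genes) and HA-Zmiz1 (27.8%) were present at 10 of 10 members by the choice of genes, with 11 and 48 peaks. Rbpj was present at 10 of 10 (67.2%) with 62 peaks, 1 at Rec114 to 14 at Nck2. Its median density was 3.26 peaks per 100 kb, against 1.29 for all genes. Ctnnd2 (0.209), Rec114 (0.371) and Lpp (0.429) were below the all-gene median, and the other members were above it. Because 96.6% of all ICN1 peaks overlapped Rbpj, its presence in these windows follows largely from the choice of genes. The Rbpj peak at the anchor also counts in each density. ICN1 of the Flag line was present at 5 of 10 (0.215%) and Flag-Zmiz1 at 2 of 10 (4.06%). All 5 Flag-line ICN1 peaks in these windows were the ones at the anchors. Since every member was picked for a strong HA-line ICN1 site, the excess over all genes follows in part from that choice. The closer comparison is with the 414 HA-line sites, where 12.8% had ICN1 in both lines (5.76% outside high-input places). In all, 47 genes had an ICN1 peak of the Flag line in their windows and 28 of them also had ICN1 of the HA line, HA-Zmiz1 and Rbpj. The 28 include 5 members. Kcns2 and Cept1, 2 of the others, share the windows of Stk3 and Dennd2d. Among 12 known Notch targets, for comparison, 5 had ICN1 and HA-Zmiz1 of the HA line within 50 kb (Dtx1, Nrarp, Notch3, Igf1r and Ccnd3), 10 had Rbpj and 1 had ICN1 of the Flag line (Igf1r).

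Segments of H3K4me1 (74.1% of all genes), H3K4me3 (73.8%) and the library labelled H3K27me3 (72.0%) were found in 10 of 10 windows, and those of the library labelled H3K27ac (58.0%) in 5 of 10. Rhoh and Nck2 were covered most. H3K4me1 covered 86.1% of the Rhoh window and 84.8% of the Nck2 window, H3K4me3 41.2% and 34.7%, and the library labelled H3K27me3 84.0% and 80.0%. Ctnnd2, the widest gene, was covered least, with 5.62%, 0.648% and 3.22% in these 3 lists. Members' medians were 33.4%, 14.4% and 30.7%, against 8.64%, 4.22% and 5.08% for all genes, and 9 of 10 members exceeded the all-gene median in each. The members hold an ICN1 peak by the choice of genes, and 78.3%, 89.1% and 89.4% of all ICN1 peaks overlapped segments of these 3 lists. Higher values than in all genes thus follow in part from that choice, and genes with an ICN1 peak were not taken as a comparison. In the library labelled H3K27ac the members' median was 0.0941%, against 3.07%, and 3 of 10 exceeded it. Rec114 stood apart there with 12 segments over 36.1% of its window, the nearest 7.45 kb from the anchor.

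**Figure D4:**
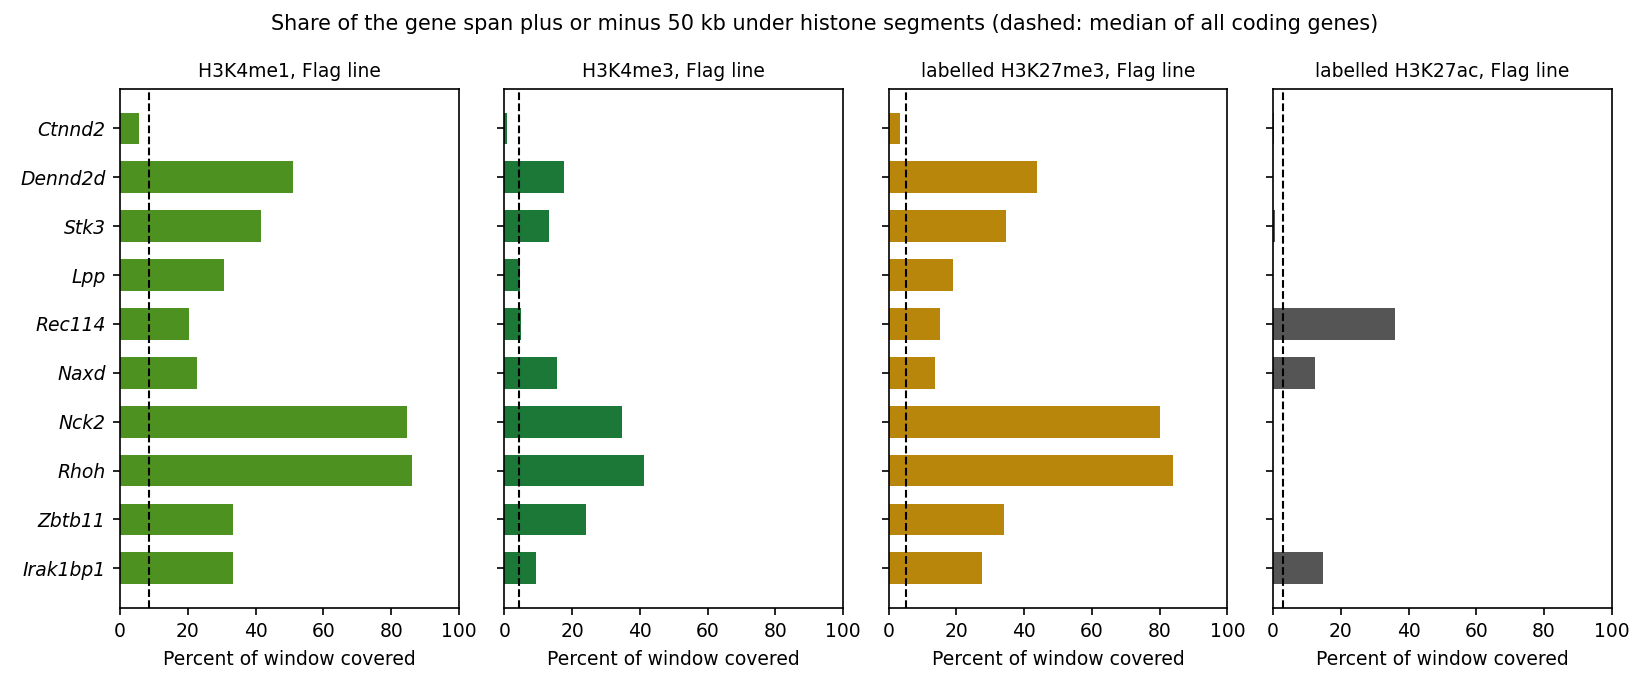
Percent of each gene's window (span plus or minus 50 kb) under segments of the 4 histone libraries of the Flag line (x axes). The dashed line is the median of all protein-coding genes. Rhoh and Nck2 are highest in the first 3 panels, and Rec114 in the library labelled H3K27ac.

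The gene nearest to a site need not be the one it acts on. The 10 windows held other genes too, among them Phip by the Irak1bp1 site and Cept1 by Dennd2d, and no expression values were used here.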

How the data were processed

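The submitters' processing notes list mm10 and, among other tools, Bowtie 0.12.7, MACS2 2.0.10 and SICER 1.1. Per the file headers, the authors called peaks with MACS 2.0.10.20120913, using each line's input as control (p limit 1e-05, 1 tag kept per position, local background of 1000 and 10000 bp). Each deposited peak has a pileup signal, a fold ratio over the local input and a −log10 p, all the authors' values. Deposited histone segments have ChIP and control read counts, a p-value, a fold ratio, and a false discovery rate of at most 0.001. The deposited tables of the 2 H3K27 libraries carry the opposite mark in their names, and were used by label.

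The windows were gene spans of RefSeq GRCm38.p6 plus or minus 50 kb. Overlap meant at least 1 bp. Strength was ranked by −log10 p. Starts came from RefSeq promoter windows, or from the ends of the span where none is listed. Local input was recovered as (pileup + 1) / fold − 1, over the library's mean background, and the limit of 10 for a high-input place was taken over from an earlier analysis of these data. Fragment lengths in the headers, 52 to 63 bp, may reflect read length, which bears on pileups and inputs. Poisson intervals (95%) are exact. Overlap counts and covered bases were tested on simulated intervals with known answers. Histone read totals are unknown. The members, gene lists and motifs were chosen with earlier results of these data known. The genes named are the 10 members and those a result turns on. Alternatives were other windows, stricter peaks and segments, other overlaps and other rankings. Python 3.11.15, pandas 2.3.3, numpy 2.4.6 and scipy 1.17.1 were used.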

Additional observations from a re-analysis of the deposited data

How the results depend on the processing

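Of 77 alternative values over 24 results, 65 stayed within 1.5 times of the value reported and 12 did not. Some of the 65 could not move. All anchors passed the −log10 p filter of 10, so it left their histone counts unchanged. Counts of members with HA-line ICN1 and HA-Zmiz1 peaks within 50 kb followed from the choice of genes, and 200 kb could not lower them. Members with a Flag-Zmiz1 peak were 2 within 50 kb, 1 in the gene span, 1 within 5 kb, 4 within 200 kb, and 1 with peaks of −log10 p of at least 10. Members with a segment of the library labelled H3K27ac were 5 within 50 kb, 2 in the span, 2 within 5 kb, 8 within 200 kb, and 3 with the upper 50% of segments by fold. That filter left 2 of the 9 anchors in H3K4me3 (Rhoh and Zbtb11). The median place of the anchors among the 82 ICN1 peaks of the Flag line was 17 by −log10 p, 6 by fold and 60 by pileup. Ranked by pileup, 1 of the 10 anchors was among the 15 strongest shared ICN1 peaks, of which 14 were high-input places, and with high-input places left out 8 were. No paired analysis was possible because each target had 1 library per line. For the same reason no library could be left out. Pileups of 10 or 11, as for Rbpj at Naxd or HA-Zmiz1 at Zbtb11, have wide counting intervals, and absence from a list means only that no peak was called.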
